A study of Bos taurus with 8 samples.

Results

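Interferon-stimulated genes and genes that sense viral RNA were followed in early bovine embryos. Of 47 symbols listed for these functions, 41 were among the 16606 genes measured. They were sorted by role into 12 antiviral effectors (of 17 listed), 4 genes of the ISG15 system (of 4), 12 other interferon-stimulated genes (of 12), 7 signalling factors (of 7) and 6 RNA sensors (of 7). IFIT1, BST2, IFITM1, IFITM2 and IFITM3 were not analysed here, and DDX58 is an older symbol of RIGI, which is among the 41. The list was drawn up by gene function, with earlier results of these data known. All 41 had a mean of at least 1 CPM (reads per 1000000 reads assigned to genes) over the 8 libraries and so entered the test, although OAS2, RSAD2, ZBP1 and MAVS averaged under 1 CPM over the 4 edited libraries.

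The embryos came from Bos taurus oocytes that were taken from slaughterhouse ovaries, matured in vitro and fertilised with Holstein semen. Edited embryos had received PEmax, a prime editor that joins a Cas9 nickase to a reverse transcriptase, and a guide RNA by injection into the cytoplasm of the zygote. The edit was aimed at RPL12, which encodes a large-subunit ribosomal protein. Control 4-cell, RPL12-edited 4-cell, control 8-cell and RPL12-edited 8-cell embryos formed the 4 groups, each with 2 libraries made from pools of 5 embryos. The titles call the edited samples base edited whereas the treatment protocol describes prime editing, and the source field calls the 4-cell samples oocytes. Whether control zygotes were injected, whether cumulus cells had been removed before collection and what share of alleles was edited is not given in the sources used here, so injection, editor and edit cannot be told apart. The share of reads in a pool that came from cells other than blastomeres was not measured.

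Interferons bind receptors at the cell surface that activate the kinases JAK1 and TYK2. These phosphorylate STAT proteins, among them STAT2, which acts with IRF9 to switch on interferon-stimulated genes. Upstream, the cytosolic helicases RIGI and IFIH1 detect viral RNA and signal through MAVS to IRF3 and IRF7, which induce interferon. In cattle the same genes are best known for their response in the uterus to interferon tau, which the trophoblast of the elongating conceptus secretes later than the stages measured here. Many interferon-stimulated genes also have a basal level in somatic cells.

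Between 33527531 and 35122409 reads per library were assigned to genes, so that 3 reads correspond to 0.0858 to 0.0899 CPM. RPL12 itself was at 159 and 174 CPM in the 4-cell control libraries and at 27.5 and 33.6 CPM in the edited ones (log2 fold change -2.41, limma adjusted p = 2.36e-06). At the 8-cell stage it was at 96.3 and 97.6 CPM in controls and at 14.1 and 11.9 CPM in edited libraries (-2.81, limma adjusted p = 2.99e-06). The edit need not change the level of RPL12, so this difference neither checks the labels of the groups nor measures the edit. Replicate libraries of a group differed by a median of 1.40-fold over the members in the 4-cell controls, 1.60-fold in the 4-cell edited, 1.27-fold in the 8-cell control and 1.46-fold in the 8-cell edited libraries. Of the 41 members, 30 were higher in the first of the 4-cell control libraries and 29 were higher in the second of the 8-cell control libraries.

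Most of these genes made up a smaller share of reads in edited than in control pools at both stages. CPM give shares of a library, so the amount of RNA per embryo was not measured. At the 4-cell stage 33 of the 41 members were lower in edited than in control embryos and 0 were higher, while 25.8% of all 12129 genes tested were lower and 18.9% higher. At the 8-cell stage 33 of 41 were lower and 0 higher, against 14.5% lower and 1.08% higher of all genes tested. Without the 4 members whose edited mean was under 1 CPM, which passed the filter through the controls, 30 of 37 were lower at each stage. The test was limma on log2(CPM + 1), with calls at a Benjamini-Hochberg adjusted p under 0.05, and log2 fold changes (edited against control, with their SE) are on that scale. At an unadjusted p under 0.05, 0 members were higher at the 4-cell stage by limma, edgeR or DESeq2, and 1 was at the 8-cell stage by each tool (IRF1). DESeq2 also called IRF1 higher at the 8-cell stage after adjustment. The median log2 fold change of the members was -2.18 for 4-cell and -2.60 for 8-cell embryos, where the medians of all genes tested were -0.016 and 0.0046. Both edited libraries lay under both control libraries for 36 members at each stage, compared with 37.5% of all genes in 4-cell and 32.7% in 8-cell embryos. An edited mean at least 4-fold under the control mean was found for 26 members at the 4-cell stage, against 13.3% of all genes, and for 27 at the 8-cell stage, against 9.31%. In bulk RNA, fewer cells of a type and less RNA per cell cannot be told apart. Summed cumulus and granulosa markers were also 3.32 times as high in control as in edited 4-cell embryos and 1.65 times in 8-cell embryos, and stromal markers 3.59 and 6.05 times. With the cumulus and granulosa marker level as a covariate, limma called 0 members at either stage, as described after the pathway genes.

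Of the 33 members called at each stage, 32 were lower at both. The share of all genes called lower at both stages was not counted, so this overlap has no background to compare with. The libraries of the 2 stages are separate, but limma estimated each gene's spread from both stages together, so the calls are not independent. Summed cumulus and granulosa markers and summed stromal markers were also lower in edited libraries at both stages. IFIT2 was called at the 4-cell stage alone and PARP9 at the 8-cell stage alone. The other 7, EPSTI1, STAT2, IRF1, MAVS, TRIM25, DHX58 and ADAR, were called at neither. The summed level of all 41 members was 19325 and 12449 CPM in the 4-cell controls against 1621 and 2000.2 CPM in the edited libraries. At the 8-cell stage it was 5563 and 8550 CPM in controls against 1137 and 1340 CPM. The control mean of this sum was 8.77 times the edited mean at the 4-cell stage and 5.70 times at the 8-cell stage. IFI6 made up a large part of the sum, and without it the ratios were 6.99 and 4.55.

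**Figure D1:**
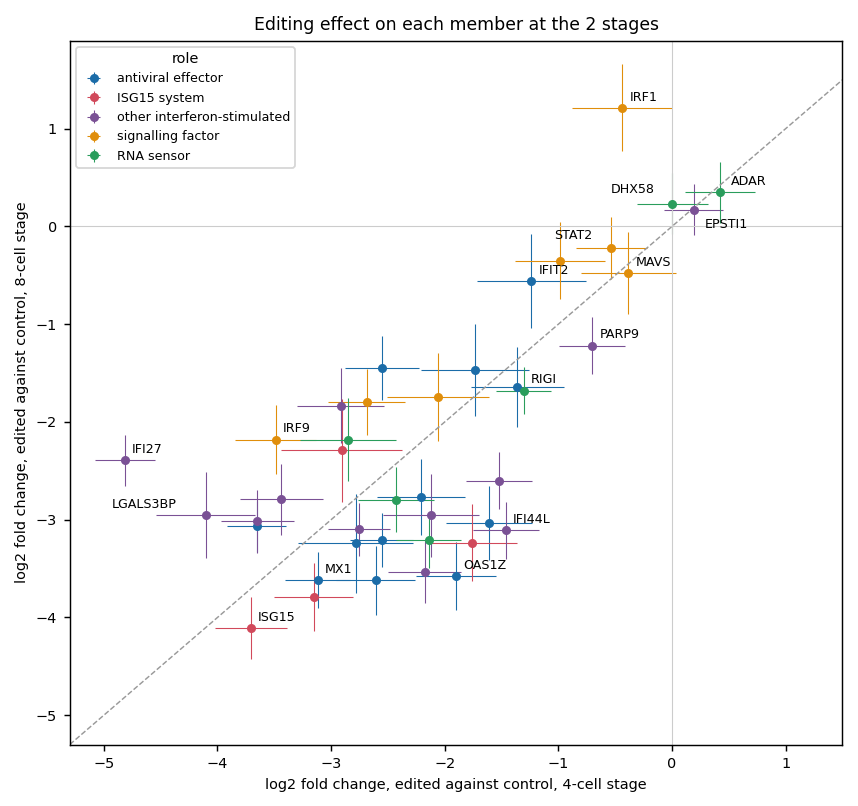
Log2 fold change, edited against control, of each of the 41 members at the 4-cell stage (horizontal axis) and at the 8-cell stage (vertical axis), on the log2(CPM + 1) scale with bars of 1 SE and colours for role. Most points lie below 0 on both axes, IFI27 lies far above the dashed line of equal effects, and EPSTI1, DHX58 and ADAR sit near 0 on both axes.

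The antiviral effectors were lower in edited embryos for 12 of 12 members at the 4-cell stage and 11 of 12 at the 8-cell stage, with median log2 fold changes of -2.38 and -3.05. MX1 and MX2 encode dynamin-like GTPases that block incoming viral particles. MX1 was at 584 and 357 CPM in the 4-cell controls and at 46.1 and 58.1 CPM in the edited libraries (log2 fold change -3.12, SE 0.287, limma adjusted p = 1.23e-06). In 8-cell embryos MX1 was at 169.9 and 267 CPM in controls and 14.5 and 18.6 CPM in edited libraries (-3.62, SE 0.287, limma adjusted p = 2.4e-06). Neither pair of groups overlapped. MX2 was at 25.8 and 29.5 CPM in 4-cell controls and 10.4 and 6.73 CPM in edited libraries, and at 29.1 and 23.8 against 1.34 and 3.74 CPM at the 8-cell stage. Its log2 fold changes were -1.61 and -3.03 at these stages, with edited below control in every library. The 2 genes are paralogs side by side in the RefSeq gene order, and reads that both could take may have been split between them by the authors' counting.

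The oligoadenylate synthetases make the messenger molecule that activates RNase L, which cuts viral and cellular RNA. OAS1Y was at 1199 and 1052 CPM in the 4-cell controls against 66.2 and 117 CPM in edited libraries, and at 414 and 534 against 50.4 and 60.3 CPM at the 8-cell stage. The log2 fold changes were -3.66 (SE 0.261, limma adjusted p = 5.55e-07) and -3.07 (SE 0.261, limma adjusted p = 2.53e-06). Its near copies fell too. OAS1X stood at 90.7 and 101 CPM in 4-cell controls, 10.5 and 21.0 CPM in 4-cell edited, 72.4 and 65.5 CPM in 8-cell control and 3.20 and 6.68 CPM in 8-cell edited libraries. OAS1Z stood at 31.7 and 25.6, 5.47 and 8.69, 21.8 and 21.4 and 0.837 and 0.958 CPM in the same order of groups. For both copies the drop was deeper at the 8-cell stage (-3.62 and -3.57) than at the 4-cell stage (-2.61 and -1.90), but neither difference between the stages passed the test. OAS2 lies in the same neighbourhood, and its gene span overlaps that of OAS1Y in the RefSeq annotation. OAS2 was lower at both stages from control levels of 3.43 to 6.13 CPM. Its 4-cell call was lost without the second control (-1.03) or the first edited library (-1.35) of that stage, and its 8-cell call without the first control (-1.44) or the first edited library (-1.31). How the reads of the 3 OAS1 copies were shared out by the counting is uncertain.

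IFIT proteins bind viral RNA ends and hinder translation. IFIT5 was at 348 and 473 CPM in 4-cell controls and 49.9 and 93.0 CPM in edited libraries, and in 8-cell embryos at 275 and 266 against 26.8 and 30.1 CPM (-2.56 and -3.21). IFIT3 was at 133 and 82.9 against 22.3 and 13.0 CPM and then at 61.6 and 69.6 against 18.1 and 30.1 CPM (-2.55 and -1.45). Without the first 8-cell edited library the 8-cell log2 fold change of IFIT3 was -1.10 and missed the threshold. IFIT2 fell at the 4-cell stage (-1.24, limma adjusted p = 0.0459) and at the 8-cell stage had a log2 fold change of -0.56 (95% confidence interval from -1.58 to 0.46). The 4-cell call of IFIT2 was lost without the first control (-0.41), the first edited (-1.36) or the second edited library (-1.12) of that stage. All 3 IFIT genes overlap LIPA in the RefSeq annotation. This overlap is of whole gene spans, introns included, and whether exons overlap was not examined. The libraries do not mark strand, so reads from any shared exon bases could not be told apart.

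SAMD9, a restriction factor against poxviruses, was at 46.9 and 71.0 CPM in 4-cell controls against 7.12 and 18.8 CPM in edited libraries and at 46.6 and 45.7 against 7.38 and 4.73 CPM at the 8-cell stage. RSAD2, which encodes viperin and makes a chain-terminating nucleotide, was at 18.0 and 8.47 against 0.174 and 2.22 CPM at the 4-cell stage. Later it was at 7.18 and 13.3 CPM in controls and at 0.0299 and 0.270 CPM in edited libraries, the lower of which is 1 read. It was called lower at both stages, as was its neighbour CMPK2, a nucleotide kinase with 7.94 and 6.54 CPM in the 4-cell controls. edgeR called CMPK2 at neither stage (adjusted p = 0.0670 and 0.235), and DESeq2 did not call it at the 8-cell stage (0.141). By limma it missed the threshold at the 4-cell stage without the first control or the first edited library of that stage (-1.61 and -1.58), and at the 8-cell stage when any 1 of 5 libraries was left out, with the smallest change when the first 8-cell edited library was left out (-0.69). CMPK2 differed 13.9-fold between the 2 edited 8-cell libraries, the widest such gap of any member in that group.

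**Figure D2:**
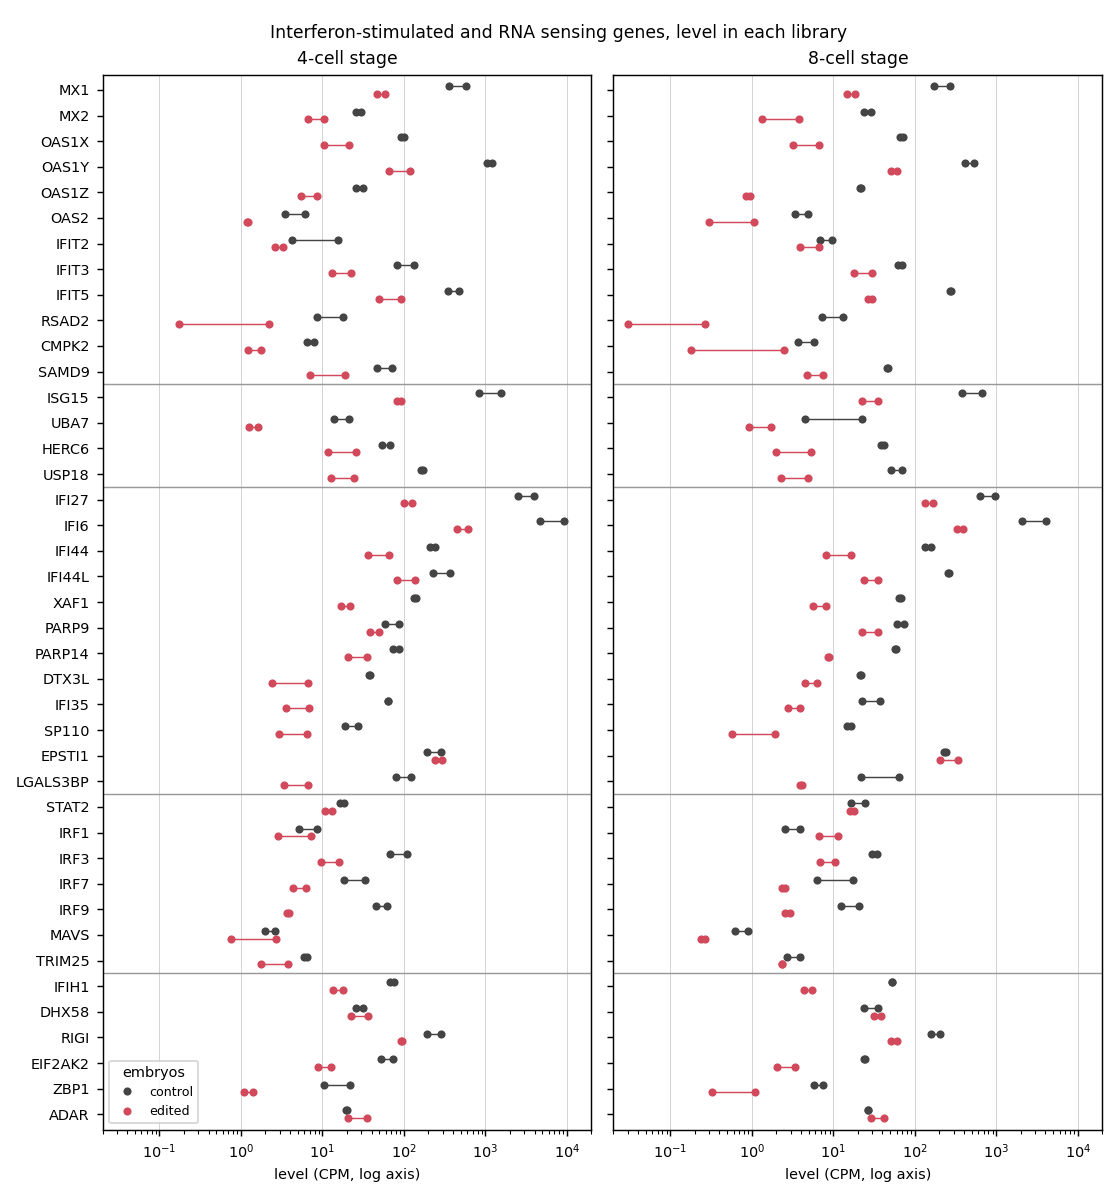
Level in CPM, on a log axis, of each of the 41 members in each library, with the 4-cell stage in the left panel, the 8-cell stage in the right one and a line joining the 2 libraries of a group. Edited libraries (red) lie below the control libraries (grey) of their stage for 36 members in each panel, while those of EPSTI1 and DHX58 overlap with them.

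ISG15 is a ubiquitin-like protein that is attached to other proteins and also secreted. All 4 genes of its system were lower at both stages, with median log2 fold changes of -3.03 and -3.51. ISG15 was at 1565 and 843 CPM in the 4-cell controls and at 82.3 and 92.2 CPM in the edited libraries (-3.71, SE 0.315, limma adjusted p = 9.77e-07). At the 8-cell stage it was at 383 and 659 CPM in controls and 35.7 and 22.2 CPM in edited libraries (-4.11, SE 0.315, limma adjusted p = 2.4e-06). On the log2(CPM + 1) scale the 8-cell value was the lowest of any member at that stage, but by edgeR RSAD2 (-5.99) and OAS1Z (-4.54) lay below ISG15 (-4.12). USP18, the protease that removes ISG15 and also restrains receptor signalling, was at 173 and 159.6 CPM in 4-cell controls against 12.9 and 24.5 CPM in edited libraries and at 50.8 and 69.5 against 2.27 and 4.82 CPM at the 8-cell stage. Its log2 fold changes were -3.15 and -3.79. HERC6, a HECT-family ligase, was at 54.3 and 67.7 against 11.6 and 25.5 CPM and at 38.6 and 41.3 against 2.00 and 5.30 CPM. The edited libraries of HERC6 spread more than its control libraries, but no edited library reached a control library. UBA7 is the activating enzyme of ISG15, and its 2 control libraries at the 8-cell stage lay 4.96-fold apart (4.46 and 22.1 CPM). Its 8-cell log2 fold change of -2.29 was -1.25 without the second control library of that stage and then missed the threshold.

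Of the 12 other interferon-stimulated genes, 10 were lower in 4-cell and 11 in 8-cell edited embryos, with medians of -2.47 and -2.87. IFI27 and IFI6 encode small membrane proteins of one family. IFI6 was at 9141 and 4734 CPM in the 4-cell controls and 449 and 611 CPM in the edited libraries, and at 2080.5 and 4031 against 329 and 389 CPM at the 8-cell stage (-3.65 and -3.01). IFI27 was at 3934 and 2518 CPM in 4-cell controls and 98.7 and 124 CPM in edited libraries, the lowest log2 fold change of any member at that stage (-4.82, SE 0.263, limma adjusted p = 4.98e-08). In 8-cell embryos IFI27 was at 638 and 966 against 168 and 132 CPM (-2.39, SE 0.263, limma adjusted p = 1.52e-05). The control libraries of both genes at the 4-cell stage lay well apart from one another, yet the lower of them was still far above every edited library.

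IFI44 and IFI44L are neighbours with related sequences. IFI44 was at 239 and 207 CPM in 4-cell controls, 36.3 and 64.6 CPM in 4-cell edited, 134 and 158 CPM in 8-cell control and 8.13 and 16.6 CPM in 8-cell edited libraries. IFI44L was at 229.5 and 369, 81.8 and 135, 252 and 264 and 24.0 and 35.0 CPM in the same order. Both had levels in 8-cell edited embryos below those of any other group. XAF1, which promotes apoptosis by binding XIAP, was at 139 and 134 against 17.1 and 22.0 CPM at the 4-cell stage and at 67.2 and 64.3 against 8.10 and 5.66 CPM at the 8-cell stage (-2.76 and -3.10). IFI35, a partner of the protein NMI, was at 64.1 and 63.3 against 3.56 and 6.81 CPM and at 22.3 and 37.5 against 3.94 and 2.79 CPM (-3.44 and -2.79). LGALS3BP, a secreted glycoprotein, was at 124 and 79.4 against 3.41 and 6.70 CPM and at 21.9 and 64.6 against 4.12 and 3.89 CPM. Its 2 control libraries at the 8-cell stage differed by a larger fold than its 2 control libraries at the 4-cell stage, though not by more CPM. SP110, a nuclear body protein, was at 27.2 and 18.7 against 2.95 and 6.43 CPM and at 14.8 and 16.6 against 1.94 and 0.569 CPM, without overlap.

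DTX3L, a ubiquitin ligase, works as a complex with the ADP-ribosyltransferase family member PARP9, and PARP14 is a further enzyme of that family in the same neighbourhood. DTX3L was at 38.3 and 37.0 CPM in 4-cell controls against 2.43 and 6.64 CPM in edited libraries and at 21.2 and 21.6 against 6.28 and 4.43 CPM at the 8-cell stage. PARP14 was at 73.4 and 86.3 against 20.4 and 35.7 CPM and at 57.2 and 58.3 against 8.58 and 8.81 CPM. Both were lower at both stages. PARP9 was at 59.2 and 87.2 against 38.7 and 49.6 CPM (-0.70, limma adjusted p = 0.0616) and at 60.0 and 73.9 against 22.3 and 35.2 CPM (-1.22, limma adjusted p = 0.00759). Its 8-cell call was lost without the second control library (-1.07) or without the first edited library (-0.90) of that stage, and a call at the 4-cell stage was made without the first 4-cell control library (-0.98). PARP9 and DTX3L overlap in the RefSeq annotation, as do PARP14 and HSPBAP1. EPSTI1, whose function is less well described, differed from the rest of this group. It was at 282 and 191 CPM in the 4-cell controls and 293 and 240.2 CPM in edited libraries, and at 240.2 and 225 against 205 and 335 CPM at the 8-cell stage. Groups overlapped at both stages, and the 95% confidence intervals of its log2 fold changes ran from -0.36 to 0.74 and from -0.38 to 0.73, with a sign that changed when 1 library was left out.

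Signalling factors showed 2 patterns. IRF3, IRF7 and IRF9 were lower at both stages, while STAT2, IRF1, MAVS and TRIM25 were called at neither, and the medians of the 7 were -0.99 and -0.48. IRF9, the DNA-binding partner of STAT2, was at 61.6 and 45.2 CPM in 4-cell controls against 3.70 and 3.89 CPM in edited libraries (-3.49, SE 0.354, limma adjusted p = 2.37e-06). At the 8-cell stage it was at 12.3 and 20.5 against 2.54 and 2.94 CPM (-2.18, SE 0.354, limma adjusted p = 0.000356). IRF3, the factor that MAVS signalling activates first, was at 108 and 67.6 against 16.1 and 9.53 CPM and at 29.9 and 34.2 against 10.4 and 6.89 CPM (-2.69 and -1.80). IRF7, which amplifies interferon production, was at 33.7 and 18.5 against 6.33 and 4.33 CPM and at 6.24 and 17.6 against 2.57 and 2.37 CPM. Its 8-cell fold of -1.74 missed the threshold without the second control library (-1.06) or the second edited library (-1.70) of that stage. IRF9 overlaps RNF31 in the RefSeq annotation.

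STAT2 was at 18.5 and 16.5 CPM in the 4-cell controls and 13.0 and 10.6 CPM in edited libraries, and at 16.6 and 24.5 against 18.1 and 16.2 CPM at the 8-cell stage. The 4-cell groups did not overlap but the difference was not called (-0.53, 95% confidence interval from -1.20 to 0.14), and the 8-cell interval ran from -0.89 to 0.45, with a change of sign without the second 8-cell control library. IRF1, a factor that many stimuli besides interferon induce, was at 8.63 and 5.13 against 7.32 and 2.87 CPM at the 4-cell and 3.92 and 2.54 against 6.63 and 11.3 CPM at the 8-cell stage. Both 8-cell edited libraries were above both controls, with a log2 fold change of 1.21 that missed the threshold by limma (adjusted p = 0.0802) and passed it by DESeq2 (adjusted p = 0.0382). With the cumulus and granulosa marker level as a covariate, the 8-cell log2 fold change of IRF1 was -0.37. MAVS had at most 2.66 CPM and TRIM25, a ubiquitin ligase that acts on RIGI, at most 6.40 CPM in any library. The 95% interval of MAVS ran from -1.27 to 0.51 for 4-cell and from -1.37 to 0.41 for 8-cell embryos. Both edited libraries of TRIM25 lay under both controls at each stage, with log2 fold changes of -0.99 (interval from -1.82 to -0.15, limma adjusted p = 0.0523) and -0.35 (interval from -1.19 to 0.49). STAT2 overlaps IL23A and IRF1 overlaps RAD50 in the RefSeq annotation.

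Among the RNA sensors, IFIH1, RIGI, EIF2AK2 and ZBP1 were lower at both stages and DHX58 and ADAR at neither. The medians of the 6 were -1.72 and -1.93. IFIH1 encodes MDA5, which recognises long viral RNA duplexes. It was at 76.5 and 67.1 CPM in the 4-cell controls against 13.6 and 17.6 CPM in edited libraries and at 53.1 and 53.0 against 5.47 and 4.31 CPM at the 8-cell stage (-2.14 and -3.21, limma adjusted p = 2.73e-05 and 3.57e-06). RIGI, which recognises short duplexes and triphosphate ends, was at 194 and 283 against 95.6 and 93.1 CPM and at 158 and 201 against 50.7 and 59.5 CPM. Its fall was the smallest among the 33 members called at the 4-cell stage when measured on group means, a 2.53-fold difference. The gene span of RIGI overlaps that of TOPORS, and whether their exons overlap was not examined.

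EIF2AK2 encodes PKR, a kinase that stops translation when it binds RNA duplexes. It was at 72.9 and 52.1 CPM in 4-cell controls against 8.94 and 12.6 CPM in edited libraries and at 23.7 and 24.7 against 2.03 and 3.35 CPM at the 8-cell stage (-2.43 and -2.79), and it overlaps GPATCH11. ZBP1, a sensor of Z-form nucleic acid that can trigger cell death, was at 22.0 and 10.4 CPM in 4-cell controls and at most 1.42 CPM in any edited library. DHX58 encodes LGP2, a helicase related to RIGI that lacks its signalling domain. DHX58 was at 31.8 and 25.4 CPM in 4-cell controls and 36.1 and 22.6 CPM in edited libraries, and at 24.1 and 35.6 against 38.2 and 31.3 CPM at the 8-cell stage. Its groups overlapped at both stages, and the 95% confidence intervals ran from -0.65 to 0.66 and from -0.42 to 0.89, and the sign likewise changed without 1 library. ADAR, an enzyme that deaminates adenosine in RNA duplexes and thereby keeps them from the sensors, was at 19.9 and 19.6 against 34.7 and 20.8 CPM and at 26.9 and 26.8 against 41.3 and 28.7 CPM. Each edited library was above both controls of its stage, but neither log2 fold change was called (0.42 and 0.35, limma adjusted p = 0.284 and 0.513).

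**Figure D3:**
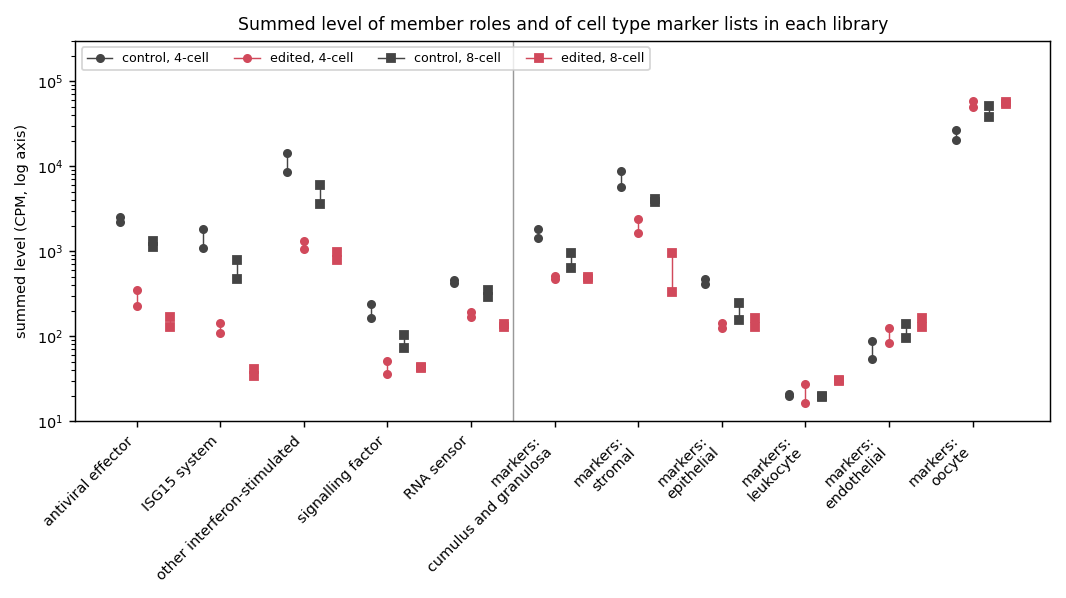
Summed level in CPM, on a log axis, of each role group (left) and each marker list (right), with 1 point per library, circles for the 4-cell and squares for the 8-cell stage, and a line joining the 2 libraries of a group. Effectors, the ISG15 system and the other interferon-stimulated genes drop in edited libraries at both stages, and so do the stromal markers, while oocyte markers do not drop.

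The size of the editing effect differed between the stages for 2 of the 41 members, IFI27 and IFI44L, against 3.96% of all genes tested. This count is near that share and is not read as a result about the members as a set. IFI27 was less reduced at the 8-cell stage, by a difference of 2.42 on the log2 scale (SE 0.372, limma adjusted p = 0.00989). IFI44L was more reduced at the 8-cell stage, with a difference of -1.65 (SE 0.408, limma adjusted p = 0.0391). At an unadjusted p under 0.05 limma gave 11 of the 41 members and 2800 of all 12129 genes, which are similar shares. edgeR called 0 members (0.123% of all genes it tested), with 12 at an unadjusted p under 0.05, a level not counted over all genes. DESeq2 called 4 members, against 6.41% of all genes. Leaving out 1 library left between 0 and 2 calls. The IFI27 difference missed the threshold without the first or the second 4-cell edited library (limma adjusted p = 0.0732 and 0.0847) or without the first 8-cell edited library (0.0556). The IFI44L difference stayed under 0.05 in only 1 of these 8 fits, the one without the second 4-cell control library (0.00530). For the other 39 members no difference between the stages was called, which does not show that the effects were equal.

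In control embryos 10 members had a lower level at the later stage and 0 a higher one, against 6.27% lower and 2.75% higher of all genes tested. They were MX1, OAS1Y, ISG15, USP18, IFI27, IFI6, XAF1, IRF3, IRF9 and EIF2AK2. IFI27 showed the lowest log2 fold change of them, from 3934 and 2518 CPM to 638 and 966 CPM (limma adjusted p = 0.00165). At an unadjusted p under 0.05, 16 members were lower and 0 higher by limma, against 3568 of all 12129 genes in either direction. edgeR called 2 lower (0.417% of all genes it tested) and DESeq2 12 (7.46%), and neither called 1 higher (0.171% and 2.35%). The count rested on single libraries, over all genes as over the members. Without the first 4-cell or the first 8-cell control library most calls were lost. The median log2 fold change of the members was then -0.59 and -0.54, against -0.61 with all 8 libraries.

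In edited embryos 14 members were lower at the 8-cell stage and 0 higher, against 3.73% lower and 1.45% higher of all genes tested. Both MX genes, OAS1X, OAS1Z, IFIT5, ISG15, HERC6, USP18, IFI44, IFI44L, XAF1, PARP14, IFIH1 and EIF2AK2 made up this set. USP18 went from 12.9 and 24.5 CPM to 2.27 and 4.82 CPM (-2.11, limma adjusted p = 0.00517), and IFI44L from 81.8 and 135 CPM to 24.0 and 35.0 CPM (-1.82, limma adjusted p = 0.00474). Limma gave 20 members lower and 0 higher at an unadjusted p under 0.05. edgeR called 11 lower and DESeq2 17, with 0 higher by either. Without the second 4-cell edited library 0 members were called, without the first 8-cell edited library 5 were, and without the second 8-cell edited library 9 were. MX1, ISG15, USP18, XAF1 and EIF2AK2 were in both sets, 50% of the control set and 35.7% of the edited set. The share of stromal markers lower at the 8-cell stage was 5 of 10 tested in control and 4 of 10 in edited embryos, and its part in these stage differences was not tested.

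**Figure D4:**
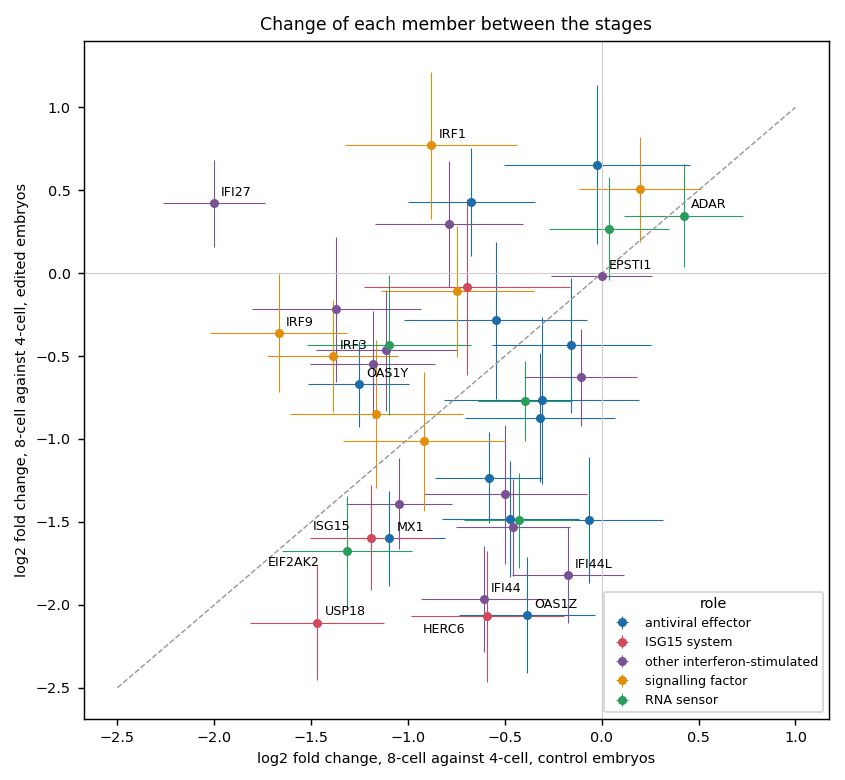
Log2 fold change of each member from the 4-cell to the 8-cell stage in control embryos (horizontal axis) and in edited embryos (vertical axis), with bars of 1 SE and colours for role. Most members lie below 0 on both axes, and IFI27 lies at the far left, lower at the 8-cell stage in controls and not called in edited embryos.

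Genes around the members in the pathway were counted from fixed lists. For comparison, 25.8% of all genes tested were lower and 18.9% higher in edited embryos at the 4-cell stage. At the 8-cell stage these shares were 14.5% and 1.08%. The lists are short, and counts near these shares are not read as a result about a list. Of 22 interferon ligand genes, 6 had a row and 0 reached the filter of 1 CPM. IFNL3 had the most reads of them, at most 51 in a library, and IFNAC, IFNAD, IFNAG, IFNW1 and IFNG had at most 16. IFNAC and IFNAG carried identical values in all 8 libraries, so they cannot be told apart. The genes of interferon beta and interferon tau were not analysed here.

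Of 5 interferon receptor genes tested, 4 were lower and 1 (IFNGR1) higher in edited embryos at the 4-cell stage, and 3 were lower and 0 higher at the 8-cell stage. IFNAR1 and IFNAR2 form the receptor of type I interferons. IFNAR1 was at 13.1 and 9.50 against 6.68 and 3.42 CPM at the 4-cell stage (limma adjusted p = 0.0439) and at 6.18 and 10.4 against 3.53 and 5.51 CPM at the 8-cell stage (0.270). IFNAR2 was at 5.59 and 4.54 CPM in 4-cell controls and 0.376 and 0.292 CPM in edited libraries. In the 8-cell controls it was at 1.72 and 3.58 CPM, and both 8-cell edited libraries had 0 reads. If each had held 3 reads, or 0.0899 CPM, the control mean of 2.65 CPM would be 29.455 times that level. This figure rests on read counting alone and leaves out the spread between libraries. IFNGR2, a chain of the interferon gamma receptor, was at 111 and 66.2 against 8.01 and 9.10 CPM and at 25.2 and 25.0 against 2.93 and 3.03 CPM (-3.19 and -2.72). Its partner chain IFNGR1, named after its values were seen, was at 102 and 99.3 against 147 and 205 CPM at the 4-cell stage, higher in edited embryos (0.77, limma adjusted p = 0.0154), and at 115 and 141 against 129 and 170.2 CPM at the 8-cell stage (0.22). IL10RB, a chain shared by the receptors of interferon lambda and interleukins, was also lower at both stages (-2.65 and -1.90).

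In the JAK-STAT core 6 genes were analysed by the test, with 1 lower (IRF2) and 1 higher (JAK1) at the 4-cell stage and 1 lower (TYK2) and 0 higher at the 8-cell stage. JAK1 was at 78.3 and 109.9 against 143 and 139 CPM, higher in edited embryos at the 4-cell stage (0.60, limma adjusted p = 0.0438), and at 118 and 123 against 107 and 112 CPM at the 8-cell stage (-0.14). TYK2 was lower at the 8-cell stage (-1.75) against -0.76 in 4-cell embryos (limma adjusted p = 0.189). IRF2 was lower at the 4-cell stage, at 10.7 and 6.95 against 1.21 and 1.61 CPM.

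A list of further sensors, adaptors and kinases gave 0 lower and 3 higher (TLR7, CGAS and TANK) of 11 tested at the 4-cell stage, and 1 lower and 0 higher at the 8-cell stage. TLR7, an endosomal sensor of RNA, was at 4.35 and 10.4 against 27.9 and 36.3 CPM at the 4-cell stage (2.07), and CGAS, the cytosolic DNA sensor, was at 3.80 and 4.22 against 11.9 and 16.3 CPM (1.58). Both were higher in edited embryos at that stage and were not called at the 8-cell stage (0.33 and 0.13). TLR3 was lower at the 8-cell stage (-1.35). Negative regulators gave 0 lower and 1 higher of 8 at each stage, PIAS1 at the 4-cell (0.65) and PTPN6 at the 8-cell stage (1.41). Of 21 further interferon-stimulated genes tested, 14 were lower and 1 (PARP12) higher at the 4-cell stage and 10 were lower and 0 higher at the 8-cell stage. Among them ISG20, an exonuclease, was at 430.5 and 238 against 34.5 and 36.8 CPM and at 144 and 176 against 23.9 and 20.04 CPM (-3.13 and -2.81). RTP4 and NMI were lower at both stages as well (-2.35 and -3.18 for RTP4, -2.61 and -2.65 for NMI).

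**Figure D5:**
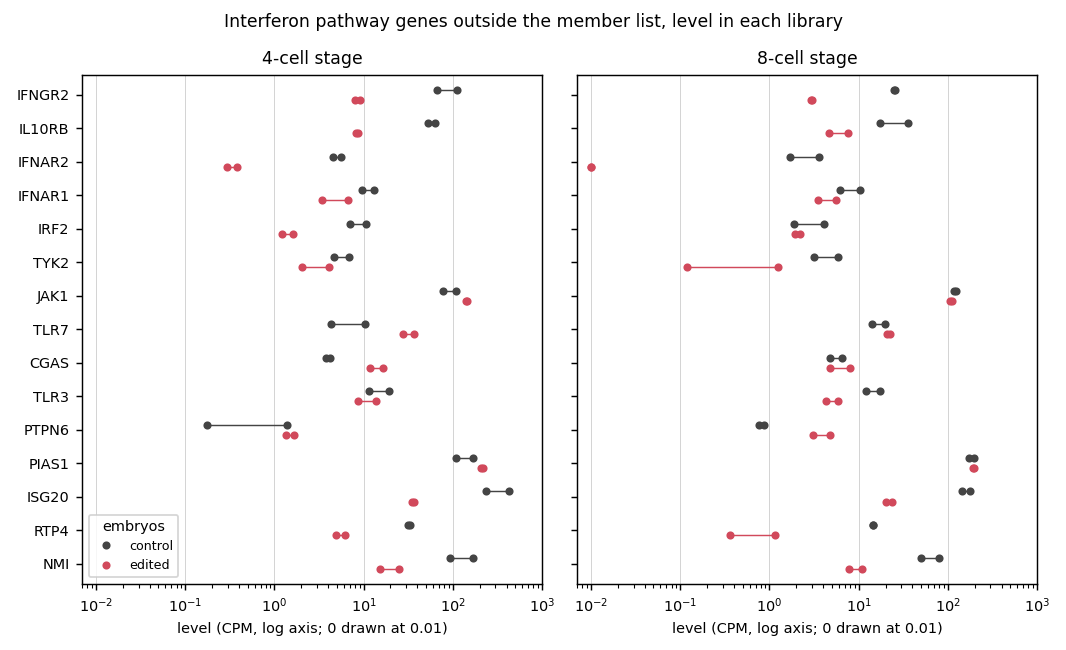
Level in CPM, on a log axis, of 15 pathway genes outside the 41 members in each library, with the 4-cell stage in the left panel, the 8-cell stage in the right one, a line joining the 2 libraries of a group and levels of 0 drawn at 0.01. IFNGR2 and ISG20 lie lower in edited libraries at both stages, while TLR7 lies higher in edited libraries at the 4-cell stage.

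Markers of other cell types were counted the same way, with the same shares of all genes tested for comparison. Those named in parentheses here, like TANK and PARP12 above, were chosen after their values were seen. Of 22 cumulus and granulosa markers, 19 were tested: 13 were lower and 2 higher (HAS2 and GREM1) in edited embryos at the 4-cell stage, and 6 were lower, 0 higher and 13 not called at the 8-cell stage. The summed level of the list was 1818 and 1429.8 CPM in 4-cell controls, 464 and 514 CPM in 4-cell edited, 642 and 941 CPM in 8-cell control and 494 and 465 CPM in 8-cell edited libraries. HSD3B1, a steroid-making enzyme, was at 283 and 283 against 5.87 and 17.8 CPM at the 4-cell and 40.7 and 176 against 8.31 and 3.09 CPM at the 8-cell stage. HSD3B1 lay near the lowest log2 fold change of the list at each stage (-4.78 and -3.80), where the medians were -1.40 and -1.20. Values of SERPINE2 and STAR, also among the markers of highest mean, are not given here. Among the stromal markers 9 of 10 tested were lower at each stage. Their sum was 5690.2 and 8745 CPM in 4-cell controls, 1634 and 2382 CPM in 4-cell edited, 4076 and 3743 CPM in 8-cell control and 330 and 962 CPM in 8-cell edited libraries, and LUM was the highest of them in every library. SPARC was at 959 and 963 against 116 and 187 CPM and at 347 and 432 against 60.5 and 69.8 CPM (-2.70 and -2.56). Epithelial markers gave 3 lower and 1 (CDH1) higher of 6 at the 4-cell stage and 2 lower and 0 higher at the 8-cell stage. Of these 6, 3 had a positive log2 fold change at each stage. Of the 10 epithelial markers with a row, OVGP1 and MSLN were at 0 in every edited library. These 2 were also chosen after their values were seen, and their control levels are not given here. Leukocyte markers summed to between 16.4 and 30.8 CPM in every library, with 1 of 4 tested (CD68) lower at the 4-cell stage and 1 (CD3E) higher at the 8-cell stage, and endothelial markers gave 1 of 3 (TEK) higher at the 4-cell stage. Oocyte markers moved the other way, with 7 of 17 higher and 1 (H1-8) lower at the 4-cell stage, and 3 higher and 0 lower at the 8-cell stage. Their log2 fold change was positive for 12 of 17 at the 4-cell and 17 of 17 at the 8-cell stage. Over all 12129 genes it was positive for 5988 and 6110. Their sum was 20151 and 26460 CPM in 4-cell controls against 49766 and 58170 CPM in edited libraries, and 50550 and 38051 CPM against 53386 and 56664 CPM at the 8-cell stage.

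With the mean log2(CPM + 1) of the cumulus and granulosa markers as a covariate in the limma fit, 0 members were called at either stage, while over all genes 1 was called in 4-cell and 3 in 8-cell embryos. The median log2 fold changes of the members were then -1.74 and -1.91, and 37 and 38 of the 41 were negative. At an unadjusted p under 0.05 there were 18 members in 4-cell embryos (43.9%, against 11.2% of all genes) and 24 at the 8-cell stage (58.5%, against 7.44% of all genes). The marker mean did not overlap between the groups, at 3.08 to 3.97 in control and 2.23 to 2.77 in edited libraries, and the median SE of the members rose from 0.347 to 0.919 and 0.739. In these 8 libraries the marker level and editing cannot be told apart. The part of RNA from stromal and other somatic cells in the members' lower level was not tested.

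Several members are neighbours in the genome and may not count as independent genes. By the gene order of the RefSeq assembly ARS-UCD2.0, 16 of the 41 lie in 6 neighbourhoods, MX1 with MX2, the 3 OAS1 genes with OAS2, the 3 IFIT genes, RSAD2 with CMPK2, IFI44 with IFI44L, and PARP9 with DTX3L and PARP14. In all, the gene spans of 13 members overlap that of another protein-coding gene there. Apart from IFIT2 and PARP9, every member in these neighbourhoods was called lower at both stages.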

How the data were processed

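RNA was measured in 8 libraries of 4 groups, each library from a pool of 5 embryos, amplified as full-length cDNA without molecular identifiers or strand information, per the labels' protocols. Replicates are separate samples by their titles, and p-values measure the spread between these samples. The authors deposited CPM for 16606 genes. Per the submitters' processing notes the tools were Trim Galore 0.6.7, HISAT2 2.2.1 and featureCounts 2.0.1, and the genome build and annotation are not given in the sources used here. The table is named for raw counts, but 1 step per library divides 100% of its positive values to a whole number (within 0.05 reads) and columns sum to 992528 to 1007024, so the values were taken as CPM and whole reads were recovered. A further 4 columns match no sample here and were not used.

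Because CPM are not counts, limma 3.58.1 in R 4.3.3 was fitted with an intensity trend to log2(CPM + 1) for the 12129 genes whose mean over the 8 libraries reached 1 CPM, with 1 mean per group and no covariate, and p-values were adjusted over all of them. This scale understates changes of low genes. edgeR 4.0.16 and DESeq2 1.42.0 on the recovered reads, other pseudocounts, filters and scalings, a marker covariate, a replicate block and leaving out each library were alternatives. The limma, edgeR and DESeq2 fits were tested on simulated data for the 4-cell comparison of edited with control embryos, and the other steps were not. The members, roles, pathway and marker lists were chosen with earlier results of these data known. Values per library were to be given for members with a mean of at least 10 CPM, plus the 2 per role with the smallest p, and up to 3 genes per other list, with the receptors IFNAR1 and IFNAR2, JAK1 and TYK2 always named. One gene of the JAK-STAT list is not reported here. Values of the 9 weaker members were chosen for print after they were seen. RefSeq symbols of ARS-UCD2.0 matched 41 of 41 members and 16571 of 16606 table symbols and served for neighbours and overlaps, with no coordinates printed. Overlaps were of whole gene spans, introns included. Same-numbered libraries of control and edited embryos had deviations that correlated at 0.108 (4-cell) and -0.0863 (8-cell), so numbers were not taken as pairs.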

Additional observations from a re-analysis of the deposited data

Results flagged for a closer look

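IFI27 was singled out because the effect of editing differed between the stages, with log2 fold changes of -4.82 in 4-cell and -2.39 in 8-cell embryos, a difference of 2.42 (SE 0.372, limma adjusted p = 0.00989). Its 4-cell control libraries were far above its 8-cell control libraries, whereas the edited libraries of the 2 stages lay close together. IFI44L was singled out for the opposite difference, with -1.46 in 4-cell and -3.11 in 8-cell embryos, a difference of -1.65 (SE 0.408, limma adjusted p = 0.0391). Its control libraries were alike at both stages and its edited libraries were lower at the 8-cell stage. edgeR called neither difference (adjusted p = 0.0628 for IFI27 and 0.0939 for IFI44L). The part of RNA from other cells in either difference was not tested.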

How the results depend on the processing

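The number of members lower in edited embryos (33 at each stage) stayed between 31 and 35 at the 4-cell stage and between 29 and 33 at the 8-cell stage under the alternatives other than the cumulus and granulosa marker covariate, which gave 0 at each. Leaving out 1 library gave 31 to 33 and 29 to 33. DESeq2 called 1 member higher at the 8-cell stage (IRF1). In all alternatives other than the covariate, 30 of the 33 calls held at the 4-cell stage (OAS2, IFIT2 and CMPK2 were lost in at least 1) and 27 of the 33 at the 8-cell stage (OAS2, IFIT3, CMPK2, UBA7, PARP9 and IRF7). The 2 differences between stages became 0 with no filter or by edgeR, 1 with TMM scaling, median-of-ratios scaling or the covariate, 4 by DESeq2 and 0 to 2 without 1 library. The 10 members lower at the 8-cell stage in controls became 0 with no filter or with the covariate, 2 by edgeR, 4 with only the libraries compared and 1 to 12 without 1 library. The 14 in edited embryos became 0 with no filter and 0 to 15 without 1 library. The covariate took RPL12 to -1.99 (limma adjusted p = 0.292) and -2.49 (0.0799), and leaving out 1 library gave -2.56 to -2.27 and -2.93 to -2.70. Signs reversed for EPSTI1 at the 4-cell stage (-0.77 with the covariate, and -0.090 without the second 4-cell control library, of a range to 0.47 without 1 library) and at the 8-cell stage (-0.56, and -0.18 without the second 8-cell edited library, of a range to 0.53). They also reversed for STAT2 with the covariate (0.040 and 0.21) and without the second 8-cell control library (0.042, of a range from -0.49). With the covariate, IRF1 at the 8-cell stage turned from 1.21 to -0.37, and MAVS at the 4-cell stage from -0.38 to 0.16. DHX58 turned to -0.15 without the second 4-cell control library and -0.32 without the first 4-cell edited library, of a range to 0.33, and to -0.038 without the first 8-cell control library, of a range to 0.51. With the replicate number as a block, 34 and 33 members were lower in edited embryos, 2 differed between stages and 11 and 14 were lower at the 8-cell stage in control and edited embryos. Same-numbered control libraries of the 2 stages correlated at -0.302, and a block with the 8-cell control numbers crossed, chosen after seeing the data, gave 35, 33, 3, 12 and 14. PARP9 at the 4-cell stage was called with either block (limma adjusted p = 0.0447 and 0.0433). With no filter, calls over all 16606 genes fell as well, to 0 for the difference between stages. Genes lower at the 8-cell stage then numbered 0 in control and 3 in edited embryos. The cause was not tested for any of these changes. Scalings moved the median of all genes by at most 0.0964.

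Depth limits genes of a few reads, such as RSAD2 in edited 8-cell embryos. The libraries have no molecular identifiers, and reads of near-identical genes, or of genes whose exons overlap, cannot be assigned with certainty. The marker covariate differs between control and edited libraries without overlap, so that fit has wide errors.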
